A study of Mus musculus with 6 samples.

Results

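The genes described here are 10 transcription factors that work beside PU.1, the protein encoded by Spi1. They are 5 C/EBP genes (Cebpa, Cebpb, Cebpd, Cebpe and Cebpg) and 5 IRF genes (Irf1, Irf2, Irf4, Irf5 and Irf8), taken by symbol from a table of 25628 gene symbols, in which all 10 had a row. The data are poly(A) RNA-seq read counts from 6 cultures of the TgSpi1 erythroleukaemic line numbered 722, mouse bone marrow blasts of the red cell lineage that make too much PU.1 and grow in erythropoietin. All cultures carried the Spi1 transgene and an shRNA against Spi1 under doxycycline control. In the Dox_Treated group 3 cultures received doxycycline for 48 h, and in the Dox_Untreated group 3 cultures received none. Both groups come from 1 line, and no culture with doxycycline and another shRNA is among these samples, so that the effects of doxycycline and of Spi1 loss cannot be told apart. The comparison asks how the transcripts of these partners differ between cultures with doxycycline, where Spi1 was lower, and cultures without.

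C/EBP proteins bind DNA as dimers through a basic region and a leucine zipper. C/EBPα works with PU.1 to set up granulocyte and macrophage fates, C/EBPβ and C/EBPδ act in macrophages and in emergency granulopoiesis, and C/EBPε drives the last steps of granulocyte maturation. C/EBPγ lacks an activation domain and pairs with other C/EBP proteins or with ATF4. IRF proteins recognise GAAA repeats: IRF1 activates and IRF2 mostly restrains interferon-response genes, IRF5 carries signals from Toll-like receptors, and IRF4 and IRF8 bind poorly alone and are brought to composite ETS-IRF sites by PU.1. PU.1 normally declines as red cell precursors mature.

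Total counts lay between 78926663 and 101276319 per library. Spi1 had 84.7, 80.4 and 62.1 CPM (read counts scaled to library size) in doxycycline replicates 1, 2 and 3, against 414, 353 and 330 CPM in untreated replicates 1, 2 and 3 (log2 fold change -2.27, SE 0.17, edgeR adjusted p = 0.00299). Of 12 erythroid markers 11 passed the filter on low counts, and the summed level of the list was 4225 to 6546 CPM with doxycycline and 3656 to 4917 CPM without. The largest part was Tfrc, at 3098 ± 480 CPM with doxycycline and 2101 ± 376 CPM without (SD, n = 3 each, edgeR adjusted p = 0.192). Hbb-bs, the next, was lower with doxycycline, at 775 ± 171 against 1010 ± 298 CPM (SD, n = 3 each, edgeR adjusted p = 0.567). The median log2 fold change of the 11 was 0.44. None of the 11 passed with edgeR, 3 were higher at an unadjusted p under 0.05, DESeq2 called 2 higher, and the block fit described below called 7 higher and 1 lower. In that fit 10.3% of all genes tested rose and 15.6% fell. Markers of neutrophils were uneven between replicate numbers. Their summed level was 0.121, 11.6 and 9.73 CPM in doxycycline replicates 1, 2 and 3 and 0.204, 44.7 and 9.95 CPM in untreated replicates 1, 2 and 3. Untreated replicate 2 thus stood apart in these markers, and both libraries numbered 1 had almost none.

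Of the 10 members, 6 passed the filter and were tested: Cebpb, Cebpd, Cebpg, Irf1, Irf2 and Irf5. The other 4, Cebpa, Cebpe, Irf4 and Irf8, had a deposited count of 28 or less in every library. With edgeR's quasi-likelihood test 1 of the 6 passed an adjusted p of 0.05, Irf5, which fell, where 2.59% of the 14158 genes tested passed in either direction and 2.18% fell. None rose, where 0.417% of all genes did. At an unadjusted p under 0.05, 2 members were higher and 2 lower, and DESeq2 called 1 higher and 2 lower. With the replicate number as a block, a fit that compares libraries of equal number, 4 of 6 passed: Cebpb and Cebpg rose, and Irf1 and Irf5 fell. In that fit 25.8% of all genes passed, 10.3% rising and 15.6% falling. For these 4 members no treated library had a CPM within the untreated range. Separate groups were seen in 20.6% of all genes tested, with doxycycline higher in 8.88% and lower in 11.7%.

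**Figure D1:**
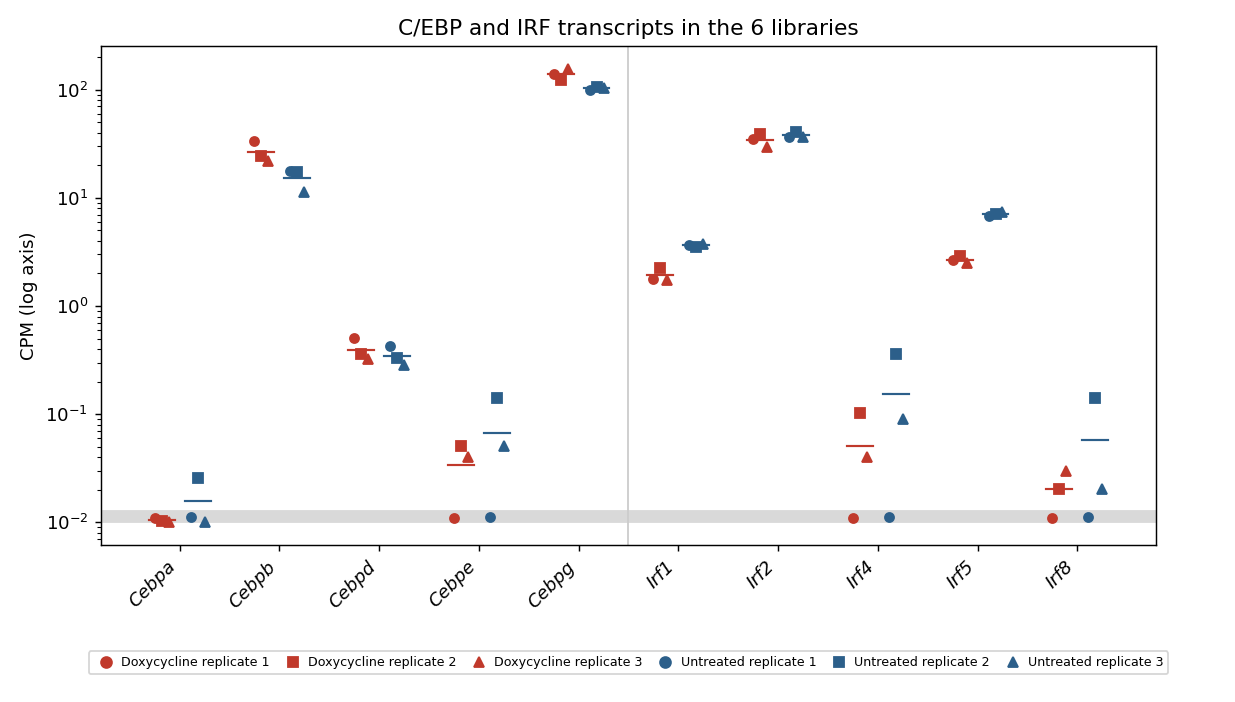
CPM of the 10 members in each library on a log axis, doxycycline (red) left of untreated (blue); marker shapes are replicate numbers, short lines are group means and the grey band is the CPM of a deposited value of 1, the lowest in the table. Irf5 and Irf1 lie lower and Cebpb and Cebpg higher with doxycycline without overlap, and Cebpa, Cebpe, Irf4 and Irf8 lie at or near the band in the libraries numbered 1.

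The promoters of 3 members are shown because their genes took different courses: Irf5, the member that fell in both fits; Cebpb, the member with the highest positive fold change; and Irf2, an abundant member that passed in neither. They are RefSeq promoters of build GRCm38.p6, from 250 bases before to 50 bases after the transcript start, all on the plus strand, 5′ to 3′. Capitals mark matches on either strand to the letters GAGGAA (the PU.1 core), TTGCNNAA or its special case TTGCGCAA (C/EBP), GGAA or GAAA followed after 2 free bases by GAAA (the composite ETS-IRF element with GGAA, the interferon-stimulated response element with GAAA), and TGACG (the core of CREB and ATF sites).
Irf5 promoter, chr6:29526375-29526674: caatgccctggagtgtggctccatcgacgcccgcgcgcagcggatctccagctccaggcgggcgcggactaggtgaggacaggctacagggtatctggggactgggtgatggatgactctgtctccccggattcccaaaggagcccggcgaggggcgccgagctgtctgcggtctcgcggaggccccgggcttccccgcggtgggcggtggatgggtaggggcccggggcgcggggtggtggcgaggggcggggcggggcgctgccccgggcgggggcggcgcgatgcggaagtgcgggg
Cebpb promoter, chr2:167688665-167688964: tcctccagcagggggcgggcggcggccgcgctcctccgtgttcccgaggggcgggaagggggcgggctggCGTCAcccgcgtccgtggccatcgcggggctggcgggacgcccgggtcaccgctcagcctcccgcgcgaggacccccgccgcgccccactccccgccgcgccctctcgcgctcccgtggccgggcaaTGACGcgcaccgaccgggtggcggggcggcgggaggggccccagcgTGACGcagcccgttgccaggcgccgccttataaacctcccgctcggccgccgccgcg
Irf2 promoter, chr8:46739495-46739794: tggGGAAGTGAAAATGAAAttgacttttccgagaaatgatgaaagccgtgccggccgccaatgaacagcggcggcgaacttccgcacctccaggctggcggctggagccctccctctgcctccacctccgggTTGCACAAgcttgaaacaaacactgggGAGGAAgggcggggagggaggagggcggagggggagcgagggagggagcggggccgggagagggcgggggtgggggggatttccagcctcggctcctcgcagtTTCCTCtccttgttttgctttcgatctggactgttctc

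The Irf2 window held 5 of these matches, a composite ETS-IRF element overlapping an interferon-stimulated element at its far end, TTGCACAA, and a PU.1 core on each strand. The Cebpb window held 3 copies of TGACG, and the Irf5 window held no match. Among all 32851 promoters of this length, 28.3% held the PU.1 core, 10.8% TTGCNNAA, 0.183% TTGCGCAA, 2.72% the composite element, 3.44% the interferon-stimulated element and 20.8% TGACG. A promoter was found for 8 of the 10 members, and those of Cebpa, Cebpg, Irf1 and Irf8 held no match either. The single match in the Irf4 window was a PU.1 core. These are matches of letters and not measured sites.

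Irf5 was the member with the clearest change. It lies on chromosome 6 from 29526625 to 29541871 on the plus strand (ENSMUSG00000029771.12, GRCm38). It had 2.64, 2.89 and 2.48 CPM in doxycycline replicates 1, 2 and 3, against 6.83, 7.16 and 7.36 CPM in untreated replicates 1, 2 and 3. Every treated library was below every untreated one, and the spread within each group was small: 2.67 ± 0.205 CPM with doxycycline and 7.11 ± 0.268 CPM without (SD, n = 3 each). This was a log2 fold change of -1.41 (SE 0.20, 95% interval -1.87 to -0.95, edgeR adjusted p = 0.0182). With the block it was -1.42 (SE 0.14, edgeR adjusted p = 7.1e-05). Ranked over the 14158 genes tested, it was number 453 from the lowest fold change, and Spi1 was number 177. The call without the block was lost when doxycycline replicate 1 (adjusted p = 0.0894) or 2 (adjusted p = 0.0512), or untreated replicate 1 (adjusted p = 0.0769) or 2 (adjusted p = 0.0922), was left out in the edgeR fit, with fold changes between -1.47 and -1.36. With the block it held when any replicate number was left out, at edgeR adjusted p of 0.00708 or less. Irf5 shares 411 of its 2905 exonic bases with Tnpo3, a nuclear import receptor gene on the other strand, and strand is not kept by the kit used. Tnpo3 had 206 ± 22.9 CPM with doxycycline and 207 ± 21.8 CPM without (SD, n = 3 each; log2 fold change -0.01, edgeR adjusted p = 0.986). How many Tnpo3 reads entered the Irf5 counts was not tested.

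Irf1, the interferon-inducible activator on chromosome 11 (53770014 to 53778374, plus strand, GRCm38), was lower in all 3 pairs. It had 1.79, 2.26 and 1.73 CPM in doxycycline replicates 1, 2 and 3, against 3.70, 3.50 and 3.74 CPM in untreated replicates 1, 2 and 3. The untreated libraries lay close together, and the treated ones were all lower, with replicate 2 the nearest to them. The log2 fold change was -0.92 (SE 0.23, 95% interval -1.45 to -0.39), which did not pass without the block (edgeR adjusted p = 0.0922). It passed with the block (-0.93, SE 0.17, edgeR adjusted p = 0.00258) and by DESeq2 (adjusted p = 0.00105). The block call was lost without replicate number 1 (edgeR adjusted p = 0.0717).

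Irf2, on chromosome 8 (46739732 to 46847458, plus strand, GRCm38), encodes a factor that competes with IRF1 for the same sites. It was the most abundant of the 5 IRF members per length and did not pass in either fit. It had 35.1, 38.7 and 29.6 CPM in doxycycline replicates 1, 2 and 3, against 36.7, 40.3 and 36.7 CPM in untreated replicates 1, 2 and 3. The groups overlapped. The log2 fold change, -0.14 (SE 0.15), did not pass (edgeR adjusted p = 0.773), and its 95% interval of -0.50 to 0.23 covers changes of either sign. With the block that interval was -0.37 to 0.08.

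Cebpb was the C/EBP member with the highest fold change. It is an intronless gene on chromosome 2 (167688915 to 167690418, plus strand, GRCm38), and its several protein forms come from 1 mRNA, so counts do not tell them apart. It had 33.9, 24.2 and 21.8 CPM in doxycycline replicates 1, 2 and 3, against 17.5, 17.3 and 11.3 CPM in untreated replicates 1, 2 and 3. The groups did not overlap, and replicate 3 was the lowest library in both. The log2 fold change was 0.79 (SE 0.25, 95% interval 0.21 to 1.37), which did not pass without the block (edgeR adjusted p = 0.177). With the block it was 0.79 again (SE 0.12, edgeR adjusted p = 0.00116), and it passed whichever replicate number was left out, at an adjusted p of 0.0409 or less. DESeq2 gave an adjusted p of 0.0473. Cebpb shares 312 of its 1504 exonic bases with Tmem189 on the other strand, whose log2 fold change had the opposite sign (-0.80, edgeR adjusted p = 0.215, and -0.79 with the block, adjusted p = 5.7e-04). How many Tmem189 reads entered the Cebpb counts was not tested.

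Cebpg, on chromosome 7 (35046422 to 35056573, minus strand, GRCm38), was the most abundant member. It had 141, 122 and 156 CPM in doxycycline replicates 1, 2 and 3, against 98.6, 105 and 104 CPM in untreated replicates 1, 2 and 3. Every treated library was above every untreated one, and the treated libraries were more spread out. The log2 fold change was 0.45 (SE 0.14, 95% interval 0.13 to 0.77) and did not pass without the block (edgeR adjusted p = 0.166). It passed with the block (0.44, SE 0.10, edgeR adjusted p = 0.00802), though not when replicate number 1 was left out (edgeR adjusted p = 0.115).

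Cebpd, on chromosome 16 (15887286 to 15891031, plus strand, GRCm38), was low in every library. It had 0.505, 0.360 and 0.321 CPM in doxycycline replicates 1, 2 and 3, against 0.430, 0.331 and 0.283 CPM in untreated replicates 1, 2 and 3, on deposited counts of 26 to 46. The groups overlapped, with replicate 1 highest and replicate 3 lowest in both. The log2 fold change was 0.18 (SE 0.32, 95% interval -0.56 to 0.93, edgeR adjusted p = 0.866), and no difference was detectable at this depth. Of its exonic bases 562 of 3746 lie opposite exons of Spidr, a DNA repair gene at 61.7 ± 2.98 CPM with doxycycline and 48.2 ± 1.15 CPM without (SD, n = 3 each), and the part of Spidr reads in its counts was not tested.

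**Figure D2:**
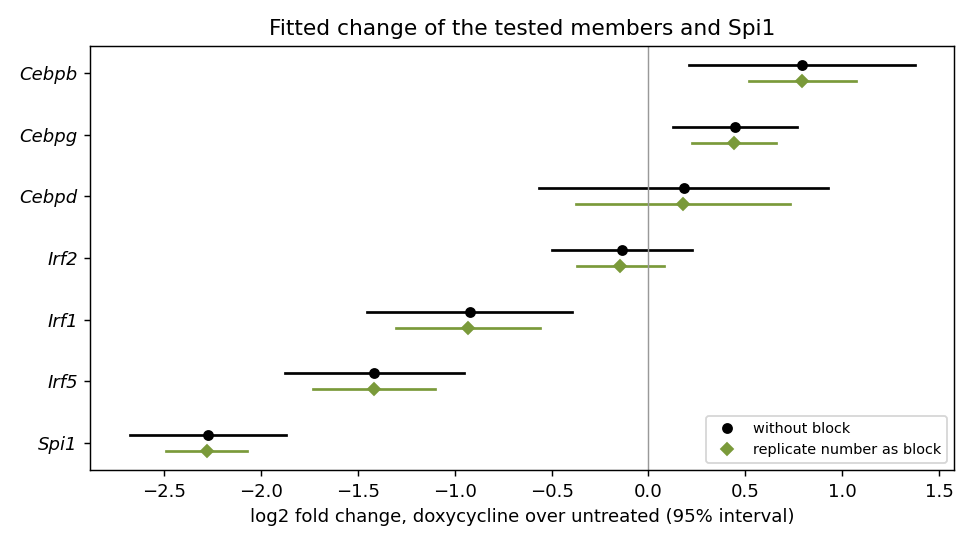
Log2 fold change of the 6 tested members and Spi1, doxycycline over untreated, with 95% intervals, without the block (black circles) and with the replicate number as a block (green diamonds). The intervals of Cebpd and Irf2 cross 0 in both fits, and those of the other 4 members do not; an interval for a single gene is not adjusted for the 14158 genes tested.

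Within pairs of equal replicate number, all 6 tested members had the same sign 3 times, 3 higher and 3 lower with doxycycline, where 57.4% of all genes tested did. Irf5 had log2 ratios of -1.37, -1.31 and -1.57 for numbers 1, 2 and 3, and Irf1 had -1.05, -0.63 and -1.12. Cebpb had 0.95, 0.48 and 0.95 and Cebpg had 0.52, 0.21 and 0.59 for numbers 1, 2 and 3. Number 2 had the smallest ratio in size in each of the 6 members, and in Spi1 as well (-2.29, -2.14 and -2.41). Over all genes tested, number 2 was the smallest in 40.1%, and over the 367 genes that passed without the block in 25.1%. Apart from doxycycline, Cebpb differed between the replicate numbers (edgeR adjusted p = 0.0203 for the replicate terms), as 43.3% of all genes did. The adjusted p of the other 5 tested members lay between 0.212 and 0.859.

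**Figure D3:**
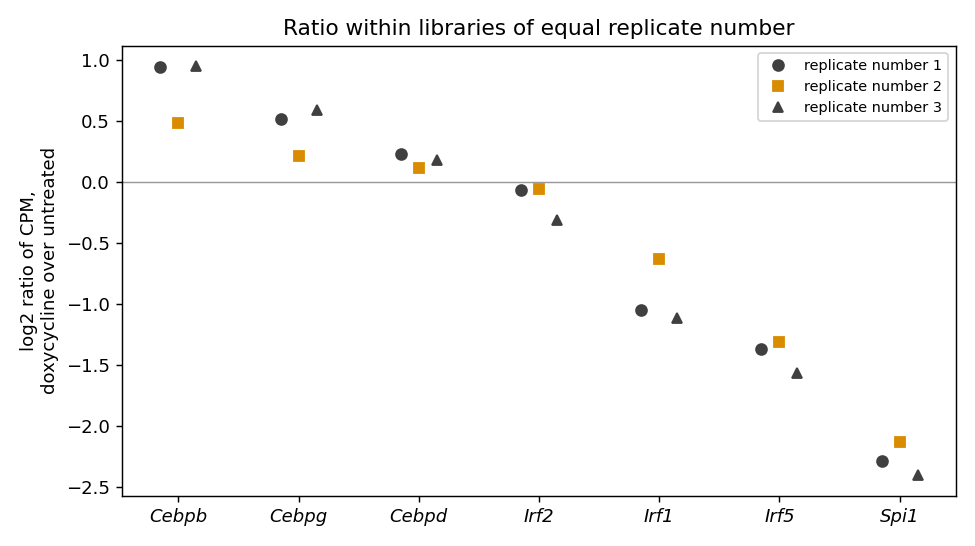
Log2 ratio of CPM, doxycycline over untreated, within libraries of equal replicate number, for the 6 tested members and Spi1; orange squares are number 2, dark circles number 1 and dark triangles number 3. Each gene has 3 points on 1 side of 0, and the orange square is the nearest to 0.

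The 4 members below the filter, Cebpa, Cebpe, Irf4 and Irf8, were close to absent. On GRCm38 Cebpa lies on chromosome 7 (35119293 to 35121928, plus strand) and Cebpe on chromosome 14 (54710360 to 54712174, minus strand). Irf4 lies on chromosome 13 (30749226 to 30766976, plus strand) and Irf8 on chromosome 8 (120736358 to 120756694, plus strand). Since the smallest entry in each column was 1, as if every count had been raised by 1, reads are given here with 1 subtracted. Cebpa had no read in any doxycycline library, and 0, 1 and 0 reads in untreated replicates 1, 2 and 3. A count of 0 in 1 library allows up to 0.0301 to 0.0382 CPM, counting error only. Cebpe had 0, 4 and 3 reads in doxycycline replicates 1, 2 and 3, against 0, 10 and 4 in untreated replicates 1, 2 and 3. Irf4 had 0, 9 and 3 reads with doxycycline, against 0, 27 and 8 untreated, in the same order. Irf8 had 0, 1 and 2 reads with doxycycline, against 0, 10 and 1 untreated. In each of these 4 genes the highest library was untreated replicate 2, and both libraries numbered 1 had no read.

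The neutrophil markers followed the same libraries. S100a9, a calcium-binding protein of granulocytes, had 0.0110, 4.08 and 3.27 CPM in doxycycline replicates 1, 2 and 3, against 0.0340, 14.9 and 3.33 CPM in untreated replicates 1, 2 and 3. The 7 B cell markers summed to 0.132, 0.606 and 0.472 CPM with doxycycline and 0.158, 2.17 and 0.566 CPM untreated, again highest in untreated replicate 2. Where these marker reads came from was not tested, nor was the part of such cells in the reads of Cebpe, Irf4 and Irf8. In bulk RNA fewer cells of a type and less RNA per cell cannot be told apart. In a fit of all symbols without the filter, none of the 4 passed (edgeR adjusted p between 0.743 and 0.951). In the same fit with the block, chosen after the data were examined, Irf4 passed (log2 fold change -1.49, edgeR adjusted p = 0.0133) on 12 reads with doxycycline and 35 untreated, 27 of them in untreated replicate 2. In that fit Cebpe, Irf4 and Irf8 also differed between replicate numbers (edgeR adjusted p = 0.00892, 2.7e-05 and 0.0213).

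Markers of other cell types were mostly low in both groups. The monocyte list summed to 15.6 to 22.0 CPM with doxycycline and 18.7 to 25.1 CPM untreated, nearly all of it Ccr2 (18.2 ± 3.52 and 19.3 ± 3.02 CPM; SD, n = 3 each, doxycycline first). The dendritic list summed to 39.8 to 46.3 CPM with doxycycline and 37.0 to 47.4 CPM untreated, most of it Bst2, an interferon-inducible membrane protein that other cells make too (37.8 ± 3.62 and 39.2 ± 6.25 CPM; SD, n = 3 each, doxycycline first). The T and NK cell list stayed at 0.914 CPM or less with doxycycline and 0.510 CPM or less untreated, and the stromal and endothelial list at 0.339 and 0.675 CPM or less (doxycycline first). No gene of the neutrophil, monocyte, dendritic, B cell, T and NK or stromal lists passed with edgeR without the block. In the block fit 4 of these genes passed, 2 lower and 2 higher with doxycycline, where 15.6% of all genes fell and 10.3% rose. Lower were Cd68, a lysosomal protein of macrophages (0.905 ± 0.198 CPM with doxycycline and 2.06 ± 0.314 CPM untreated, SD, n = 3 each; edgeR adjusted p = 0.00277), and Mmp8, the neutrophil collagenase, named after its values were seen (edgeR adjusted p = 0.0263). Higher were Zbtb46, from the dendritic list (edgeR adjusted p = 3.7e-04), and Cd3g, a T cell receptor subunit (edgeR adjusted p = 0.0411). Zbtb46 was highest in the libraries numbered 3, at 11.2 CPM with doxycycline and 5.73 CPM untreated, and which cells gave its reads was not tested. The dendritic markers Flt3, Itgax, Xcr1, Clec9a and Siglech had 0.0510 CPM or less in every library. Cd3g had 0.560 ± 0.354 CPM with doxycycline and 0.263 ± 0.0997 CPM untreated (SD, n = 3 each), and Cd3e and Cd3d were below the filter. Of the 4 genes that passed with the block, DESeq2 without the block called Cd68 alone (adjusted p = 0.00199). The part of such cells in the changes of Irf1, Irf5, Cebpb and Cebpg was not tested.

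**Figure D4:**
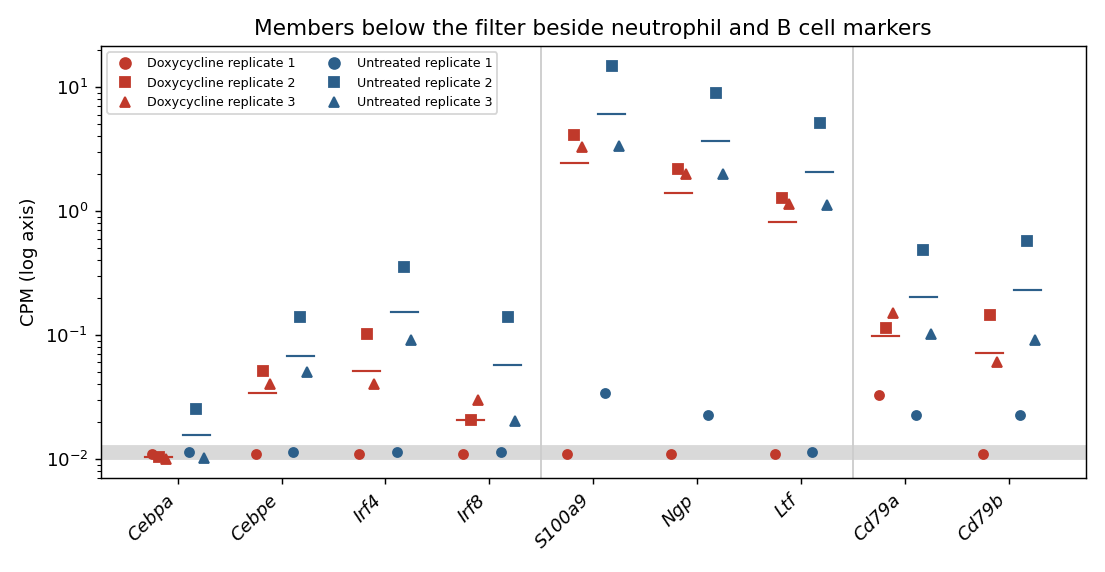
CPM on a log axis of the 4 members below the filter, of 3 neutrophil markers (S100a9, Ngp, Ltf) and of 2 B cell markers (Cd79a, Cd79b), doxycycline (red) left of untreated (blue); the grey band is a deposited value of 1. Untreated replicate 2 (blue square) is the highest point of every gene shown.

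Levels of different genes were compared as CPM per kb of annotated exon. Among the C/EBP members Cebpg led with 24.9 ± 3.06 with doxycycline and 18.2 ± 0.618 untreated, followed by Cebpb with 17.7 ± 4.24 and 10.2 ± 2.36 (CPM per kb, SD, n = 3 each, doxycycline first). Both stood far above the rest of the family. Cebpd was next at 0.105 ± 0.0258 with doxycycline and 0.0929 ± 0.0200 untreated, with Cebpe and Cebpa lower still. Doxycycline replicate 1 had 25.1 for Cebpg and 22.5 for Cebpb, so that these neighbours came near to each other, while in untreated replicate 3 they were apart, at 18.5 and 7.51. The ratio of Cebpb to Cebpg, both per kb, was 0.898, 0.741 and 0.522 in doxycycline replicates 1, 2 and 3, against 0.665, 0.615 and 0.407 in untreated replicates 1, 2 and 3. The groups overlapped, while within each pair of equal number the ratio was higher with doxycycline; this difference was not tested. Among the IRF members Irf2 led with 4.66 ± 0.625 with doxycycline and 5.13 ± 0.275 untreated. Irf5 came next with 0.919 ± 0.0706 with doxycycline and 2.45 ± 0.0922 untreated, and Irf1 with 0.484 ± 0.0734 and 0.918 ± 0.0317 (CPM per kb, SD, n = 3 each, doxycycline first). Of the summed level of the 5 IRF members Irf5 took 15.2% ± 0.815 with doxycycline and 28.7% ± 1.11 untreated, and Irf2 took 76.6% ± 1.12 and 60.1% ± 1.29 (SD, n = 3 each, doxycycline first). The order Cebpg, Cebpb, Irf2, Irf5, Irf1, Cebpd, Cebpe and Irf4 held for the means of both groups.

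Relatives of both families were counted beside the members. Of 6 tested genes of the other IRF and IRF-binding proteins none passed in either fit, none had an unadjusted p under 0.05, DESeq2 called none, and their median log2 fold change was -0.05, beside 0.01 over all genes. The most abundant of them were Irf2bp1 (52.1 ± 5.78 CPM with doxycycline and 44.4 ± 1.75 CPM untreated) and Irf2bp2 (46.6 ± 2.30 and 49.3 ± 4.28 CPM; SD, n = 3 each), corepressors that bind IRF2. Irf3, picked after its values were seen, exceeded Irf2 per kb, at 10.1 ± 1.29 with doxycycline and 11.7 ± 1.68 untreated (SD, n = 3 each). Of 16 tested bZIP relatives and dimer partners of C/EBP 1 rose, Atf5, an activator that binds C/EBP proteins (log2 fold change 0.78, SE 0.15, edgeR adjusted p = 0.0472), a call lost whichever library was left out (edgeR adjusted p 0.0543 to 0.208). That is 1 of 16, where 2.59% of all genes passed. With the block 4 rose and 2 fell, where 25.8% of all genes passed. The 4 were Atf5, Atf4, Atf3 and Ddit3, the last a dimer partner that blocks C/EBP binding, and the 2 were Batf and Junb, all but Atf5 named after their values were seen.

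Of 15 tested controllers of C/EBP proteins 1 rose, Trib3, a pseudokinase of the stress response (178 ± 56.1 CPM with doxycycline and 61.8 ± 7.84 CPM untreated, SD, n = 3 each; log2 fold change 1.52, edgeR adjusted p = 0.0245). Its relatives Trib1 and Trib2, which send C/EBPα to breakdown, did not pass (log2 fold change 0.36 and 0.28, edgeR adjusted p = 0.790 and 0.717; both picked after their values were seen). With the block 1 rose and 3 fell, and the median without it was 0.05. Over all genes tested 10.3% rose and 15.6% fell with the block, and 0.417% rose and 2.18% fell without it. Of 20 tested genes of signals that act through IRF proteins 1 fell, Sting1, listed as Tmem173, the adaptor of cytosolic DNA sensing. It had 0.0219, 0.0514 and 0.0201 CPM in doxycycline replicates 1, 2 and 3, against 0.623, 0.752 and 0.758 CPM in untreated replicates 1, 2 and 3 (log2 fold change -4.45, SE 0.42, edgeR adjusted p = 0.00582). The treated values lie near the CPM of a deposited 1 (0.0100 to 0.0127), so the size of this change is uncertain. With the block 8 of the 20 fell and 2 rose, where 15.6% of all genes fell and 10.3% rose. Those that fell included Sting1, Myd88, Irak1, Irak4, Traf3, Jak1 and Jak2, and those that rose were the interferon receptor chains Ifnar1 and Ifnar2. Of these 10 genes Sting1 alone passed without the block, and the others given here were named after their values were seen. Of 12 tested other PU.1 partners, Spi1 included, Cbfb, the partner of RUNX proteins, fell beside Spi1 (58.9 ± 19.8 CPM with doxycycline and 149 ± 17.0 CPM untreated, SD, n = 3 each; edgeR adjusted p = 0.0443), a call lost whichever library was left out (edgeR adjusted p 0.0599 to 0.151). The block fit called 3 of this list lower, Spi1, Cbfb and Ikzf3, the last named after its values were seen, where it called 15.6% of all genes lower. Spi1 is the target of the shRNA, so its call is not a result about the partners.

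Genes that C/EBP and IRF proteins are known to regulate were grouped into 3 lists. Of 20 tested genes of MHC class I, the immunoproteasome and GTPases, known targets of IRF1 and IRF2, Gsdmd, the pore-forming gasdermin D, fell (9.29 ± 0.836 CPM with doxycycline and 23.6 ± 1.87 CPM untreated, SD, n = 3 each; log2 fold change -1.34, edgeR adjusted p = 0.0136). The block fit called 10 lower and 1 higher, and the median without it was -0.31. Over all genes tested 15.6% fell and 10.3% rose with the block, and 2.18% fell and 0.417% rose without it. Among 12 tested macrophage and antigen presentation genes there were 2 fallers and 1 riser, against 7 and 1 in the block fit, beside the same shares of all genes. Tnf, an inflammatory cytokine, fell (0.122 ± 0.0363 CPM with doxycycline and 1.45 ± 0.718 CPM untreated), and the riser was the cytokine Il1b (5.35 ± 1.82 CPM with doxycycline and 0.893 ± 0.0347 CPM untreated; SD, n = 3 each). The calls of Tnf, Il1b, Trib3 and Gsdmd were each lost without untreated replicate 1 (edgeR adjusted p 0.0646 to 0.0815) or untreated replicate 2 (edgeR adjusted p 0.0690 to 0.109). Those of Trib3, Tnf and Gsdmd were lost without doxycycline replicate 1 too (edgeR adjusted p 0.0765 to 0.0923), that of Tnf without doxycycline replicate 2 (edgeR adjusted p = 0.0570) or 3 (edgeR adjusted p = 0.0532), and that of Trib3 without untreated replicate 3 (edgeR adjusted p = 0.0666). Of 24 rows of this list 12 were below the filter, among them H2-Aa, H2-Ab1 and H2-Eb1 of MHC class II and their activator Ciita. Of 16 tested granulocyte genes with C/EBP sites none passed with edgeR, and 4 were lower at an unadjusted p under 0.05. DESeq2 called 3 lower, and with the block 6 fell, where 15.6% of all genes did. The 4 were Prtn3, Lyz2, Il6ra and Cd14, named after their values were seen. None of these 4 stands in the neutrophil list, which does not hold every gene that neutrophils express. In each the groups did not overlap, and the part of neutrophil reads in them was not tested. Their untreated means were low, at 0.247, 4.11, 0.656 and 0.360 CPM in that order. Lyz2 was highest in untreated replicate 2, Prtn3 and Il6ra in untreated replicate 3, and Cd14 in untreated replicate 1. Of the 6 that fell with the block, Mmp8 alone stands in the neutrophil list. The median of the granulocyte list was -1.33, and the neutrophil markers, 8 of which stand in this list too, were highest in untreated replicate 2 as given above. S100a9 had a log2 fold change of -1.31 (edgeR adjusted p = 0.810), and without untreated replicate 2 it was 0.54 (edgeR adjusted p = 0.987).

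**Figure D5:**
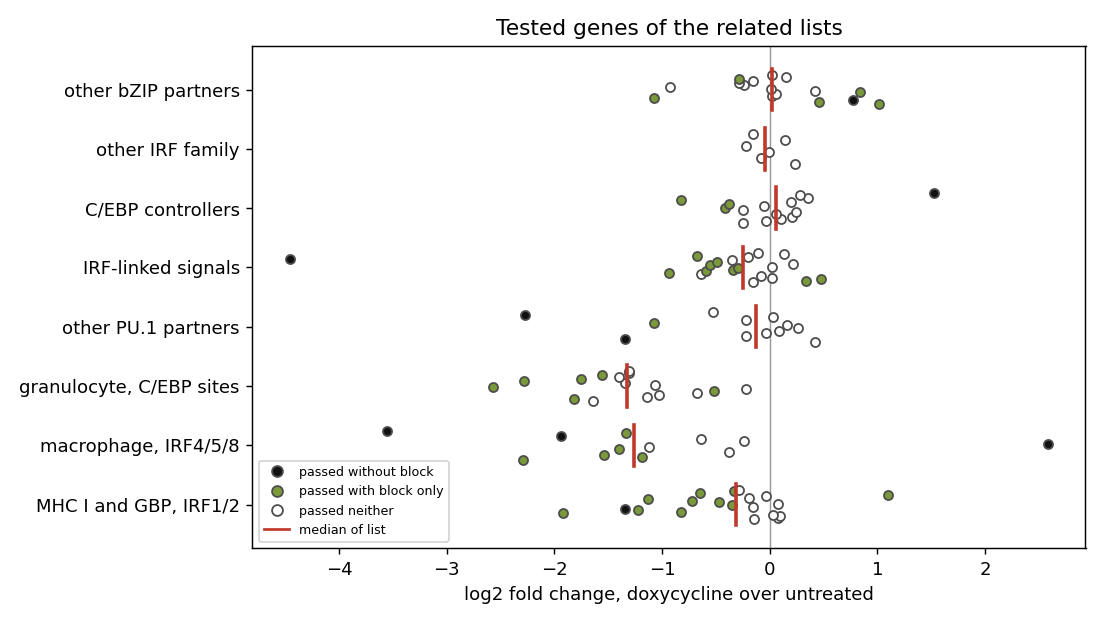
Log2 fold change, doxycycline over untreated, of the tested genes of 8 related lists; black points passed edgeR without the block, green points with the block only, open points neither, and red lines are list medians. The medians of the granulocyte list (-1.33) and the macrophage list (-1.26) lie lowest, and that of the other IRF genes lies near 0.

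For each tested member the genes of at least 5 mean CPM with the most similar log2 CPM over the 6 libraries were sought among about 9300 genes. With 6 libraries and so many genes high values of Pearson r are easily found, and they only describe. Irf5 ran closest to Acvr1b, an activin receptor (r = 0.996), and Rac2, a GTPase of blood cells (r = 0.996). Irf1 ran closest to Ghdc (r = 0.998) and Irak4 (r = 0.995), and Irf2 was close to Ganc (r = 0.988). Cebpb ran closest to Dhtkd1 and Acad9 (both r = 0.993), Cebpg to Polr2m (r = 0.995) and Cdk2ap1 (r = 0.994), and Cebpd to Psmd14 (r = 0.994) and Elp3 (r = 0.993).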

How the data were processed

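Raw counts of reads by gene symbol were deposited for the 6 libraries, made with the Illumina TruSeq RNA v2 kit per the labels' protocols. Software named in the submitters' processing notes is STAR, DESeq2 and bcl2fastq (version 2.17.1.14), with builds mm10 and GRCm38; which program counted reads, the annotation and strand setting were not given in the sources used here. The smallest value in every deposited count column was 1; counts were tested as deposited, and 1 was taken off each as an alternative. The labels call the cultures biological replicates without saying how they were separated. The p-values therefore set each difference against the spread between these samples only. With the block they set it against the spread left after equal numbers were paired.

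Differences were tested with edgeR 4.0.16 under R 4.3.3 by its quasi-likelihood method, two-sided, with TMM factors, on the 14158 symbols that filterByExpr kept, group as the only term, and Benjamini-Hochberg adjustment over all of them (threshold 0.05). SE was taken as the size of the log2 fold change over the root of F. CPM use TMM-scaled library sizes. The alternatives were DESeq2 (1.42.0), other size factors, no filter, leaving out libraries, and the replicate number as a block. Libraries of equal number deviated together from their group means (r = 0.75, 0.72 and 0.71 for numbers 1, 2 and 3), so the numbers were taken to pair them. The block lowered the common coefficient of variation to 11.3%, against 28.6% without it, and left 2 residual degrees of freedom. Block fits without a replicate number had fewer still, and their adjusted p varied widely (for Cebpb, edgeR adjusted p from 2.2e-08 to 0.0409).

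The members and the 15 gene lists were chosen with earlier results of these data known. Of 198 list genes 184 had a row, 1 by an older symbol (RefSeq GRCm38.p6), and 134 were tested. Named genes were the members, Spi1, per list up to 3 passing genes of lowest adjusted p (or the 2 of highest mean CPM, if none passed), and 2 most similar genes for each tested member; 2 of these named genes are not reported here, and marker lists are given by their sums. Positions and exon lengths are GENCODE M21 (GRCm38). The fit was tested on simulated data. Protein sequences were not used here.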

Additional observations from a re-analysis of the deposited data

How the results depend on the processing

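The fold changes of Cebpb, Cebpg, Irf1, Irf2 and Irf5 kept their sign under every alternative run, and that of Cebpd turned without doxycycline replicate 1. Other size factors and taking 1 off each count moved no member across the threshold. The fit without the block called 59 genes higher and 308 lower, 0 members higher and 1 lower, and 3 list genes higher and 6 lower, Spi1 included. With the replicate block, which pairs equal numbers, these were 1452, 2206, 2, 2, 18 and 40, and of the members it changed the calls of Cebpb, Cebpg and Irf1 and no other. DESeq2 gave 291, 722, 1, 2, 6 and 15, and DESeq2 with the block 1436, 1966, 2, 2, 17 and 35. The block without the filter, added after the data were examined, gave 1537, 2497, 2, 3, 19 and 54. Without the filter 4 members differed between replicate numbers, against 1 with it. Leaving out each library gave 0 to 22 genes higher, 37 to 230 lower, 0 members higher, 0 to 1 lower, and 0 to 2 list genes higher and 2 to 6 lower. The block without replicate number 1, 2 or 3, in that order, gave 402, 1269 and 2034 genes higher, 940, 2077 and 2638 lower, 1, 2 and 2 members higher, 1, 2 and 2 lower, 10, 15 and 18 list genes higher and 18, 36 and 64 lower. The causes were not tested.

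Over fits without 1 library, log2 fold changes turned sign for Cebpd (-0.023 to 0.39), Bst2 (-0.12 to 0.11), Ccr2 (-0.20 to 0.069), Cd79a (-1.49 to 0.65), S100a8 (-1.87 to 0.47) and S100a9 (-1.89 to 0.54). With the block, Bst2 turned without replicate number 1 (0.021), and Ccr2 (0.10) and Cd79a (0.57) without number 2. The calls of Atf5, Cbfb, Trib3, Tnf, Gsdmd and Il1b without the block were lost without untreated replicate 2, at edgeR adjusted p of 0.0690 to 0.208, and those of Spi1 and Sting1 were not. Depth limits Cebpa, Cebpe, Irf4 and Irf8, which rest on deposited counts of 28 or less.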
